A study of Sus scrofa with 8 samples.

Results

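The genes that release calcium from the sarcoplasmic reticulum of muscle and pump it back were followed in the longissimus dorsi, a long back muscle, of Korean native pigs (7 months old) and Yorkshire pigs (6 months old). The genes were ATP2A1, ATP2A2, RYR1, CASQ1, SLN, PLN, CACNA1S and PVALB, chosen by name, and a probe set was taken where the platform annotation gave exactly 1 gene symbol equal to one of them. This gave 10 probe sets of 5 genes, among 24123 probe sets in all and 6765 genes named in this way. ATP2A2 had 4, ATP2A1 and PLN had 2 each, and RYR1 and SLN had 1 each, while CASQ1, CACNA1S and PVALB were matched by no such probe set and were not analysed here.

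Total RNA of back muscle taken between the seventh and ninth ribs was read on 8 Affymetrix porcine arrays of a single colour, 4 per breed, which the labels call biological replicates numbered 1 to 4. The study asked which genes differ in expression between the muscles of these breeds. Per the labels the breeds were reared alike, and no treatment or genotype beyond the breed is named. Each breed had its own age, so for every result below breed and age cannot be told apart. For differences between the breeds, the p-values measure the spread between the arrays of a breed. For correlations they come from re-pairing the arrays regardless of breed.

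In a skeletal muscle fibre, an action potential in the surface membrane is sensed by a calcium channel protein encoded by CACNA1S, which opens the ryanodine receptor RYR1 in the membrane of the sarcoplasmic reticulum, and the released calcium starts contraction. Relaxation follows as calcium pumps return it: SERCA1, encoded by ATP2A1, is the pump of fast fibres, and SERCA2, encoded by ATP2A2, that of slow fibres and the heart. Sarcolipin (SLN) and phospholamban (PLN) are small membrane proteins that inhibit these pumps. Calsequestrin (CASQ1) holds calcium inside the store and parvalbumin (PVALB) binds it in the cytosol. In pigs a variant of RYR1 is known as the cause of porcine stress syndrome, and the expression values below do not bear on genotype.

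The arrays had been scaled to a common mean, and their median signals ranged from 135.0 to 185.2. Control transcripts, read at both ends, were brighter at the 3' than the 5' end by 3.33 log2 units in Korean native pig 1 and by 3.03 in Yorkshire 3, against 0.87 to 1.73 on the other 6 arrays, and this ratio is known to be raised by RNA breakdown. Replicates 1 and 3 of both breeds had bright hybridisation controls (13.14 to 13.36 log2 units), and replicates 2 and 4 dim ones (12.08 to 12.55). These are called the bright and the dim arrays here. Of 7 listed markers of skeletal muscle fibres, 5 had a probe set, and all 5 were above the negative controls on every array, with summed signals of 233734 to 391779 across Korean native pigs, against 300695 to 482853 across Yorkshire pigs. ACTA1 and MB had none. Of 4 heart muscle markers, MYH6 and MYBPC3 had no probe set, and NPPA and TNNI3 together reached only 96.2 to 249.7 across Korean native pigs, against 158.2 to 498.9 across Yorkshire pigs. Smooth muscle also uses ATP2A2 and PLN. Its 4 markers with a probe set, of 5 listed, summed to 7092 to 10217 across Korean native pigs, against 8392 to 10756 across Yorkshire pigs, and they were highest in Yorkshire 2 and Korean native pig 2. The summed signals of the other 6 cell type lists (adipocyte, connective tissue, endothelium, nerve, leukocyte and red cell) overlapped between the breeds. Of the 2 nerve and Schwann cell genes tested, 1 had breeds that did not overlap, against 2.56% of all probe sets tested. The log2 change of this gene, 1.03, did not pass. The part of these cells in the results was not tested. In whole muscle, fewer fibres of a type and less RNA per fibre cannot be told apart.

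None of the 10 probe sets passed the test between the breeds (limma on log2(signal + 32), adjusted p = 0.999 for each over 14399 probe sets tested). Across all probe sets tested, 0 passed the adjusted threshold of 0.05, or 0%. All 10 passed the filter on dim probe sets, and on every array all 10 exceeded a signal of 91.5, the 95th percentile of the negative controls. The breeds did not overlap in 0 of the 10, against 369 of 14399, or 2.56%, of all tested. At an unadjusted p under 0.05 there was 1 of the 10, against 570 of 14399, or 3.96%, of all tested. The median log2 change, Korean native pig minus Yorkshire, was -0.04 over the 10 probe sets and 0.00472 over all tested. In 9 of the 10 the breed difference was smaller than the range among the 4 pigs of either breed, the exception being the ATP2A2 probe set Ssc.22641.3.S1_at.

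**Figure D1:**
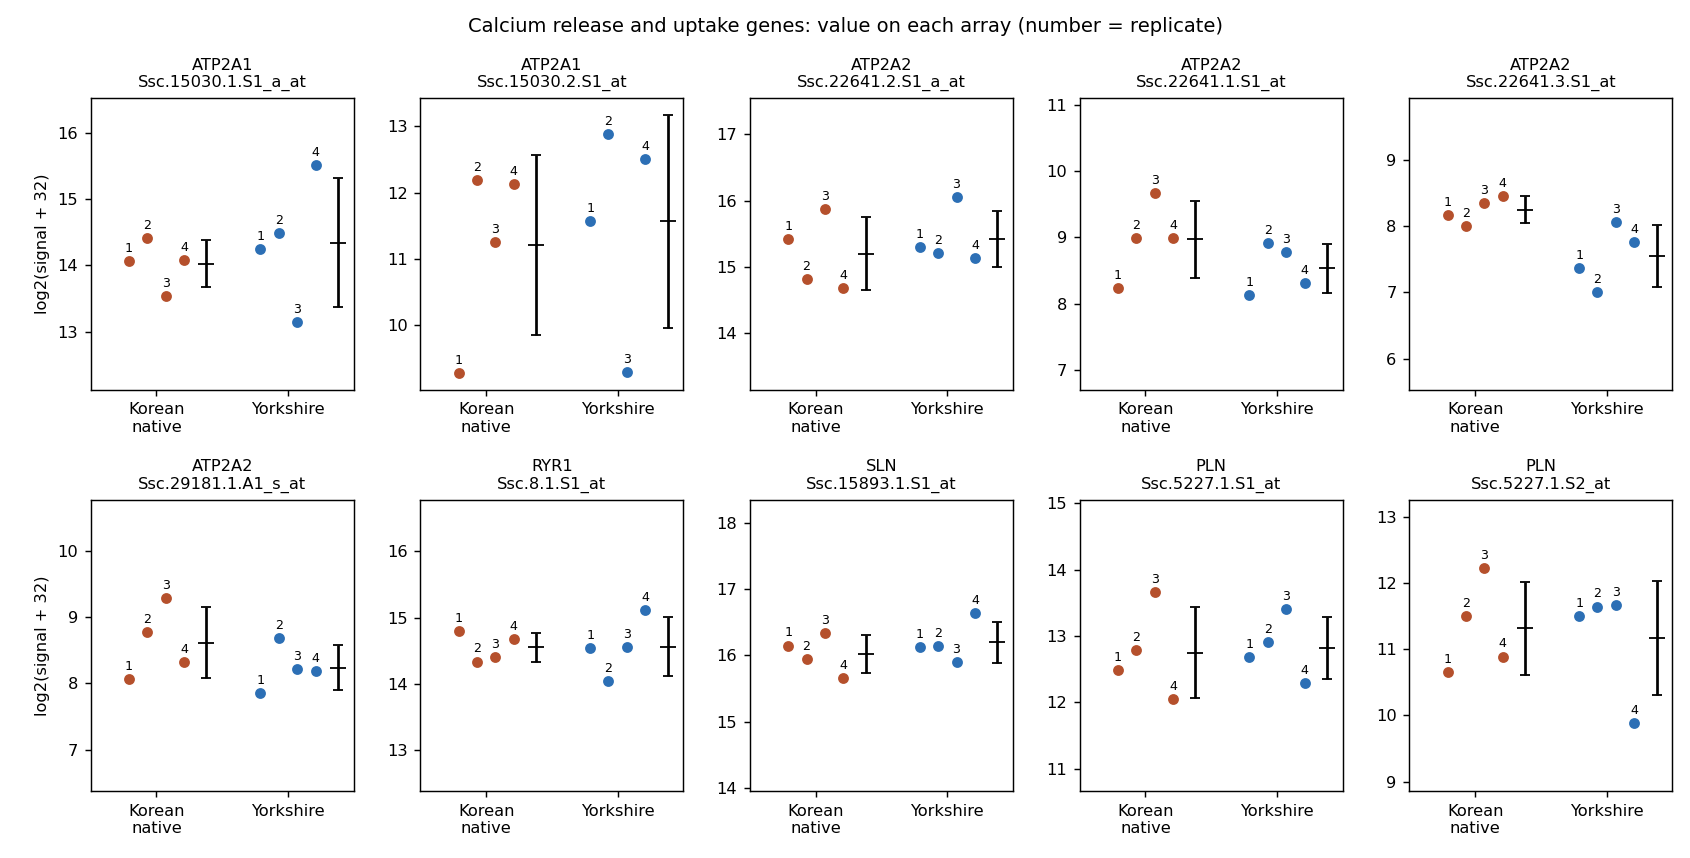
Each panel shows 1 probe set, with log2(signal + 32) on the vertical axis, a point per array numbered by replicate, Korean native pigs left and Yorkshire pigs right, and the mean with its SD (n = 4) beside them; every panel spans the same number of log2 units. The breeds overlap in all 10 panels, and ATP2A1, lowest in Yorkshire 3 and highest in Yorkshire 4, spread 5.19-fold over the arrays.

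The fast pump gene ATP2A1, read by its brightest probe set Ssc.15030.1.S1_a_at, had signals of 17092, 21825, 11884 and 17284 in Korean native pigs 1 to 4, against 19285, 22866, 8975 and 46554 in Yorkshire pigs 1 to 4. Replicate 3 was the lowest of both breeds, Yorkshire 4 stood far above all other pigs, and the breeds overlapped. The means were 17021 ± 4064 for Korean native pigs and 24420 ± 15887 for Yorkshire pigs (SD, n = 4 each), the SD in Yorkshire being the larger by far. The log2 change was -0.32 (SE 0.40, 95% interval -1.18 to 0.55, limma adjusted p = 0.999). Adding 32 to each signal understates the change of dim probe sets. Without Yorkshire 4 the log2 change was 0.07, so the sign rested on that pig; without Yorkshire 3 it was -0.72. The 2 bright arrays per breed gave 0.11 and the 2 dim ones -0.75.

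The further ATP2A1 probe set, Ssc.15030.2.S1_at, had signals of 588.3, 4654, 2412 and 4425 in Korean native pigs 1 to 4, against 3025, 7508, 594.2 and 5796 in Yorkshire pigs 1 to 4. It was lowest in Korean native pig 1 and Yorkshire 3, the arrays of the highest 3' to 5' ratio, and it spread 12.8-fold over the arrays. Its log2 change was -0.35 with an SE of 0.76 (limma adjusted p = 0.999), and with the 3' to 5' measure as a covariate the change was -0.36 and the SE 0.22 (limma adjusted p = 0.936). The brightest probe set exceeded it by 4.79 log2 units in Korean native pig 1 and 3.85 in Yorkshire 3, against 1.60 to 3.00 on the other 6 arrays. For the brightest probe set the SE was 0.34 with that covariate and 0.40 without it. The change of the further probe set was 0.29 when Korean native pig 1 was left out, 0.09 when Yorkshire 2 was, and -1.11 when Yorkshire 3 was.

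**Figure D2:**
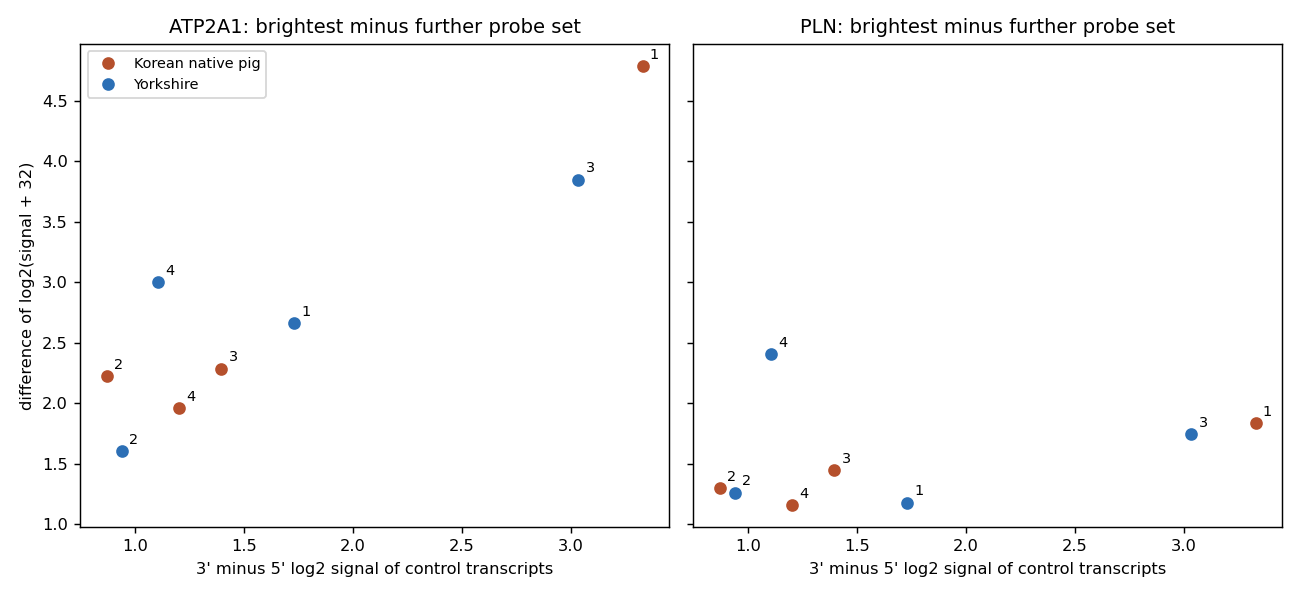
The vertical axis gives, per array, the log2(signal + 32) of the brightest probe set of ATP2A1 (left) and PLN (right) minus that of the further one, and the horizontal axis the 3' minus 5' log2 signal of control transcripts; points are arrays, numbered by replicate. For ATP2A1 the widest gaps, 4.79 and 3.85, belong to Korean native pig 1 and Yorkshire 3, the arrays of highest 3' to 5' ratio, while for PLN the widest, 2.40, belongs to Yorkshire 4.

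The slow pump gene ATP2A2, by its brightest probe set Ssc.22641.2.S1_a_at, had signals of 43765, 28884, 60207 and 26362 in Korean native pigs 1 to 4, against 40231, 37938, 67688 and 35939.5 in Yorkshire pigs 1 to 4. Here replicate 3 was the highest of both breeds, the reverse of ATP2A1, and Korean native pigs 2 and 4 were the lowest. Every bright array, at 40231 or more, was above every dim array, at 37938 or less. Differences between pigs and between these array classes cannot be told apart here. The means were 39805 ± 15619 for Korean native pigs and 45449 ± 14929 for Yorkshire pigs (SD, n = 4 each). The log2 change was -0.22 (SE 0.29, 95% interval -0.85 to 0.40, limma adjusted p = 0.999). The bright arrays gave -0.02 and the dim ones -0.42. Leaving out single pigs gave -0.45 (Korean native pig 3) to -0.01 (Yorkshire 3).

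The other 3 probe sets of ATP2A2 were dim and their changes had the opposite sign. Ssc.22641.3.S1_at had signals of 254.9, 224.8, 294.6 and 319.2 in Korean native pigs 1 to 4, against 132.2, 96.4, 235.8 and 184.4 in Yorkshire pigs 1 to 4. All Korean native pigs but the second were above every Yorkshire pig, and that pig lay below Yorkshire 3. The means were 273.4 ± 41.8 for Korean native pigs and 162.2 ± 60.9 for Yorkshire pigs (SD, n = 4 each), with a log2 change of 0.70 (SE 0.28, 95% interval 0.08 to 1.32). This was the probe set with an unadjusted p under 0.05, 0.0305 by limma, and the adjusted p was 0.999. Ssc.22641.1.S1_at had a mean of 501.1 ± 210.5 for Korean native pigs and 347.9 ± 96.1 for Yorkshire pigs (SD, n = 4 each), and a log2 change of 0.44 (SE 0.31). Ssc.29181.1.A1_s_at, of a type that can match several transcripts, had a mean of 379.7 ± 158.0 for Korean native pigs and 275.2 ± 74.1 for Yorkshire pigs (SD, n = 4 each), and a log2 change of 0.38 (SE 0.30). Both were highest in Korean native pig 3 and lowest in Yorkshire 1, both had limma adjusted p = 0.999, and without Korean native pig 3 their changes were 0.21 and 0.15. Averaged over its 4 probe sets, ATP2A2 had a log2 change of 0.32 (limma adjusted p = 0.999), so its sign depended on the probe set. The sources used here do not say which transcripts of the gene each probe set reads.

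Sarcolipin, the pump inhibitor encoded by SLN and read by probe set Ssc.15893.1.S1_at, had signals of 72496, 62880.3, 82523 and 51845 in Korean native pigs 1 to 4, against 71379.5, 71773, 60938 and 101324 in Yorkshire pigs 1 to 4. Yorkshire 4 was the highest and Korean native pig 4 the lowest, and the arrays spread 1.95-fold, the least among the 10 probe sets. The means were 67436 ± 13128 for Korean native pigs and 76354 ± 17387 for Yorkshire pigs (SD, n = 4 each). The log2 change was -0.17 (SE 0.21, 95% interval -0.63 to 0.28, limma adjusted p = 0.999), and with quantile normalisation it was 0.04. The bright arrays gave 0.23 and the dim ones -0.58, and it was -0.03 when Yorkshire 4 was left out. At signals this high, an array can read differences as smaller than they are.

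Phospholamban, encoded by PLN, had signals of 5724, 7058, 12951 and 4203 in Korean native pigs 1 to 4, against 6527, 7629, 10850.1 and 4988 in Yorkshire pigs 1 to 4, by probe set Ssc.5227.1.S1_at. Replicate 3 was again the highest and replicate 4 the lowest of both breeds, and the breed means nearly coincided at 7484 ± 3827 for Korean native pigs and 7498 ± 2483 for Yorkshire pigs (SD, n = 4 each). The log2 change was -0.07 (SE 0.33, 95% interval -0.79 to 0.64, limma adjusted p = 0.999). The bright arrays gave 0.03 and the dim ones -0.18. Its sign turned when any of 3 pigs was left out (Korean native pig 1 or 4, or Yorkshire 3), and with arrays centred on their median. The further probe set, Ssc.5227.1.S2_at, had signals of 1581, 2852, 4734 and 1865 in Korean native pigs 1 to 4, against 2868.5, 3167, 3217 and 917.8 in Yorkshire pigs 1 to 4. It was also highest in Korean native pig 3, and lowest in Yorkshire 4, with a log2 change of 0.14 (SE 0.42) that was -0.29 without Yorkshire 4 and -0.16 without Korean native pig 3.

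The release channel gene RYR1, by its probe set Ssc.8.1.S1_at, had signals of 28432, 20675, 21705 and 26096 in Korean native pigs 1 to 4, against 23823, 16802, 24016 and 35546 in Yorkshire pigs 1 to 4. The highest and the lowest value were both in Yorkshire pigs, and the Korean native pigs lay between them. The means were 24227 ± 3658 for Korean native pigs and 25047 ± 7763 for Yorkshire pigs (SD, n = 4 each). The log2 change was -0.01 (SE 0.23, 95% interval -0.50 to 0.49, limma adjusted p = 0.999), the smallest in size of the 10. The bright arrays gave 0.05 and the dim ones -0.07, and leaving out Yorkshire 4 gave 0.18 and leaving out Yorkshire 2 gave -0.18. With quantile normalisation the change was 0.03. The interval leaves room for changes of about 0.5 log2 units either way, so the absence of a call does not show equal levels.

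The balance of fast and slow pump was followed as the log2 value of ATP2A1 minus that of ATP2A2 on the same array. The size of such a difference depends on both probe sets and has no meaning by itself, but its change from array to array does. It was -1.35, -0.40, -2.34 and -0.61 in Korean native pigs 1 to 4, against -1.06, -0.73, -2.91 and 0.37 in Yorkshire pigs 1 to 4. In both breeds replicate 3 was shifted most to the slow pump, and Yorkshire 4 most to the fast pump. The mean was -1.18 ± 0.88 for Korean native pigs and -1.08 ± 1.36 for Yorkshire pigs (SD, n = 4 each), a difference of -0.09 (exact permutation test over 70 labellings, two-sided p = 0.914, adjusted over 2 differences 0.914). Its sign turned on the bright arrays alone (0.14, and -0.33 on the dim ones). It also turned when Korean native pig 3 (0.29), Yorkshire 2 (0.02) or Yorkshire 4 (0.39) was left out. It was -0.70 without Yorkshire 3 and -0.66 with the mean of all probe sets of both genes.

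The balance of the inhibitors, SLN minus PLN, was 3.66, 3.15, 2.67 and 3.61 in Korean native pigs 1 to 4, against 3.44, 3.23, 2.49 and 4.34 in Yorkshire pigs 1 to 4. Replicate 3 was the lowest of both breeds and Yorkshire 4 the highest, the same ends as for the pumps. The mean was 3.27 ± 0.46 for Korean native pigs and 3.37 ± 0.76 for Yorkshire pigs (SD, n = 4 each), a difference of -0.10 (exact permutation test, two-sided p = 0.857, adjusted 0.914). The smallest p that 4 arrays against 4 allow is 0.0286. The bright arrays gave 0.20 and the dim ones -0.40, and quantile normalisation gave 0.10. Leaving out Yorkshire 3 gave -0.40, Yorkshire 4 0.22 and Korean native pig 3 0.10.

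By their brightest probe sets, the slow pump and its inhibitor were highest in the same pigs, Korean native pig 3 and Yorkshire 3. The dim ATP2A2 probe sets did not share both peaks. Ssc.22641.3.S1_at was highest in Korean native pig 4. Among Yorkshire pigs, Ssc.22641.1.S1_at and Ssc.29181.1.A1_s_at were highest in Yorkshire 2. ATP2A2 and PLN had a Pearson r of 0.82 over the 8 arrays (exact permutation p = 0.0143, adjusted over the 2 pairs tested 0.0285) and a Spearman rho of 0.69 (exact permutation p = 0.0694, adjusted 0.139). The plan was to adjust over 4 pairs, 2 of which could not be run, and r and rho were adjusted apart. An adjustment over more tests can give a larger value. Without Korean native pig 3 and Yorkshire 3, the arrays farthest from the median of ATP2A2, r was 0.39 (exact permutation p = 0.438). The relation thus did not pass without both of them. These arrays were picked by their ATP2A2 values, and leaving them out narrows the range, which by itself can lower r. After centring within the bright and the dim arrays r was 0.76 (exact permutation within these, p = 0.0747), and a class of 4 arrays was too small for an r of its own. Leaving out only Korean native pig 3 gave r = 0.76 (exact permutation p = 0.0534), and leaving out only Korean native pig 4 gave 0.74 (exact permutation p = 0.0577). Without Yorkshire 3 alone r was 0.76 (exact permutation p = 0.0480). With the mean of all probe sets of both genes it was 0.66 (exact permutation p = 0.0689). Quantile normalisation gave a higher r of 0.89 (exact permutation p = 0.00508). With Korean native pig 1 and Yorkshire 3 left out, r was 0.84 (exact permutation p = 0.0347). The p-values of these alternative settings were not adjusted.

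No relation of the fast pump with sarcolipin passed. ATP2A1 and SLN had an r of 0.54 (exact permutation p = 0.150, adjusted 0.150) and a rho of 0.31 (exact permutation p = 0.462, adjusted 0.462). Without Yorkshire 4 alone r was -0.02 (exact permutation p = 0.973), and without Yorkshire 3 and 4 it was -0.38 (exact permutation p = 0.433). After centring within the bright and the dim arrays it was 0.79 (exact permutation within these, p = 0.0503).

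**Figure D3:**
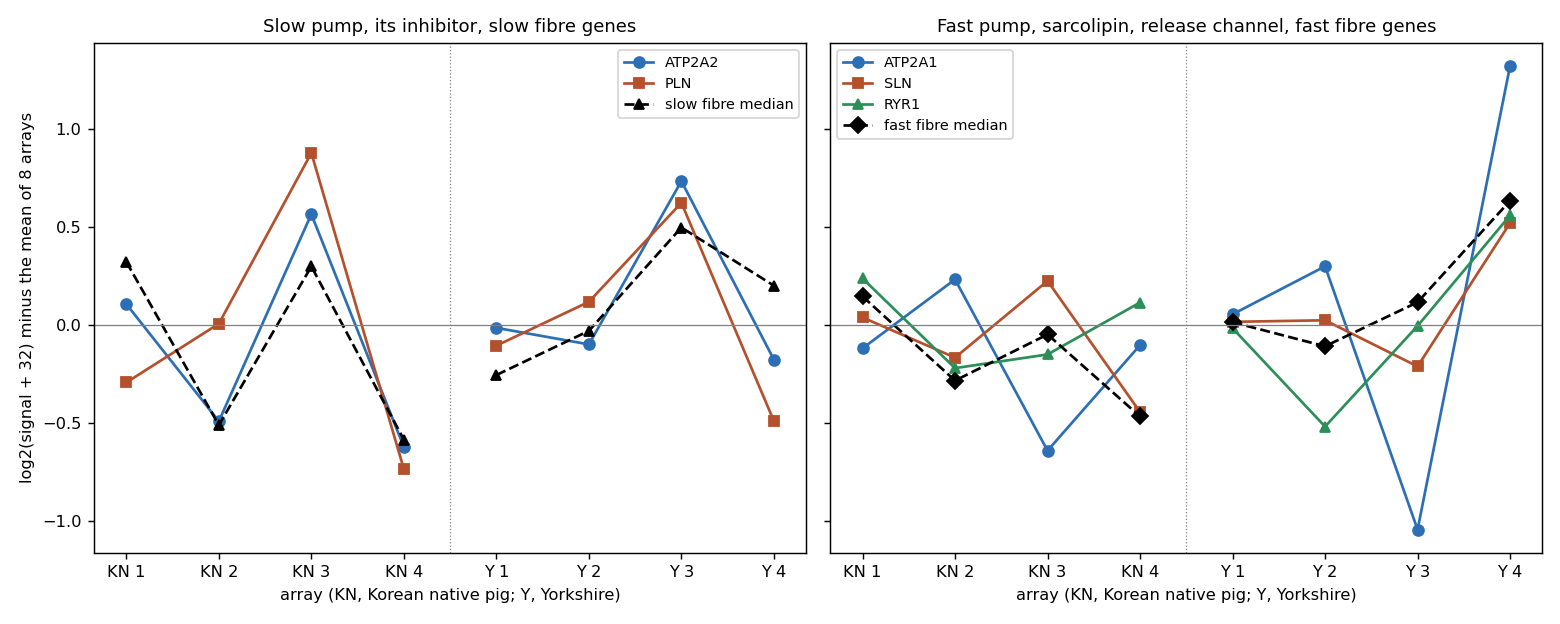
Each line gives log2(signal + 32) minus the mean of the 8 arrays for the brightest probe set of 1 gene. Dashed lines give the median of the same over fibre type genes. In each panel Korean native pig arrays are left and Yorkshire arrays right. In the left panel ATP2A2 and PLN peak in replicate 3 of both breeds; in the right panel ATP2A1 is lowest there, at -0.64 and -1.05, and highest in Yorkshire 4, at 1.32.

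Genes of slow and fast fibres were set beside these profiles, since the pumps are known to follow fibre type. Against the mean of the 8 arrays, the median of 7 slow fibre genes was highest in Yorkshire 3 at 0.50, followed by Korean native pig 1 at 0.32 and Korean native pig 3 at 0.30, and lowest in Korean native pigs 4 and 2 at -0.59 and -0.51. ATP2A2 was lowest in the same pigs, at -0.62 and -0.49, and also highest in Yorkshire 3 at 0.74. Korean native pig 3 came next at 0.57, and Korean native pig 1 was at 0.11. Yorkshire 3 and Korean native pig 1 were also the arrays of high 3' to 5' ratio, and Korean native pigs 4 and 2 were dim arrays. The slow fibre median was 0.20 in the dim array Yorkshire 4 and -0.26 in the bright array Yorkshire 1. The part of RNA quality and hybridisation in these orders was not tested. The slow myosin gene MYH7 had signals of 84681, 50179.8, 89304 and 46973 in Korean native pigs 1 to 4, against 65109, 61351, 113708 and 84943 in Yorkshire pigs 1 to 4. The median of 6 fast fibre genes was highest in Yorkshire 4 at 0.63, as were ATP2A1 at 1.32, RYR1 at 0.56 and SLN at 0.52, and lowest in Korean native pig 4 at -0.47. The fast troponin gene TNNC2 had signals of 72505, 57528, 80608 and 49503 in Korean native pigs 1 to 4, against 64978, 67188, 96271 and 127816 in Yorkshire pigs 1 to 4. In replicate 3 of both breeds ATP2A1 was at its lowest, -0.64 in the Korean native pig and -1.05 in the Yorkshire pig, while the fast fibre median was at -0.05 and 0.12. MYH2, the myosin of 1 fast fibre type, named after its values were seen, was at its lowest in the same pigs, 14914 in the Korean native pig and 29581 in the Yorkshire pig, against 52310.4 to 112891 in the other 6. The rest of the fast genes differed from MYH2, and those not named before were also named after their values were seen. MYL1, MYLPF and TNNC2 were highest of the Korean native pigs in pig 3, at 99851, 97938 and 80608. In Yorkshire 3 they were at 115636, 102741 and 96271, below only Yorkshire 4 in that breed. TNNI2 and TNNT3 were lowest in Korean native pig 4. Between the breeds, 6 of 6 fast genes tested and 6 of 7 slow genes had log2 changes below 0, with medians of -0.33 and -0.24. None passed, and 49.3% of all tested were below 0. That share counts every tested probe set, while the fibre genes were read by their brightest only. With quantile normalisation the fast median was -0.02, and without Yorkshire 4 it was -0.21. The slow median ranged from -0.40 without Korean native pig 3 to -0.09 without Korean native pig 4. The fast median was -0.04 on the bright arrays and -0.63 on the dim ones, and the slow median 0.12 and -0.62.

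Genes whose pattern over the 8 arrays was most like that of each calcium gene were found by Pearson r among 5320 other genes, and an r chosen as the highest of so many is a description only. All genes of an array share its scaling and its RNA quality, which differed between arrays. For ATP2A2 they were GPRC5A, an orphan receptor, at 0.97, FHL1, a LIM domain protein of muscle, at 0.97, and FABP5, a fatty acid binding protein, at 0.96. For ATP2A1 they were the transcriptional coactivator EDF1 at 0.99, the choline transporter SLC44A2 at 0.96 and the ryanodine receptor gene RYR3 at 0.95. For SLN they were NOP2, a nucleolar protein of ribosome assembly, at 0.97, the myogenic transcription factor MYOD1 at 0.91 and the translation initiation factor EIF1 at 0.90. For PLN they were HSDL2 at 0.95, the homeobox gene PRRX1 at 0.94 and the peptidase gene DPP4 at 0.94. For RYR1 they were RGL2, an exchange factor of Ral proteins, at 0.99, LFNG, which modifies Notch, at 0.97, and the decapping factor EDC4 at 0.96. GPRC5A, RYR3 and PRRX1 were dim, with lowest signals of 49.1, 82.6 and 41.4, under the 91.5 of the negative controls.

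**Figure D4:**
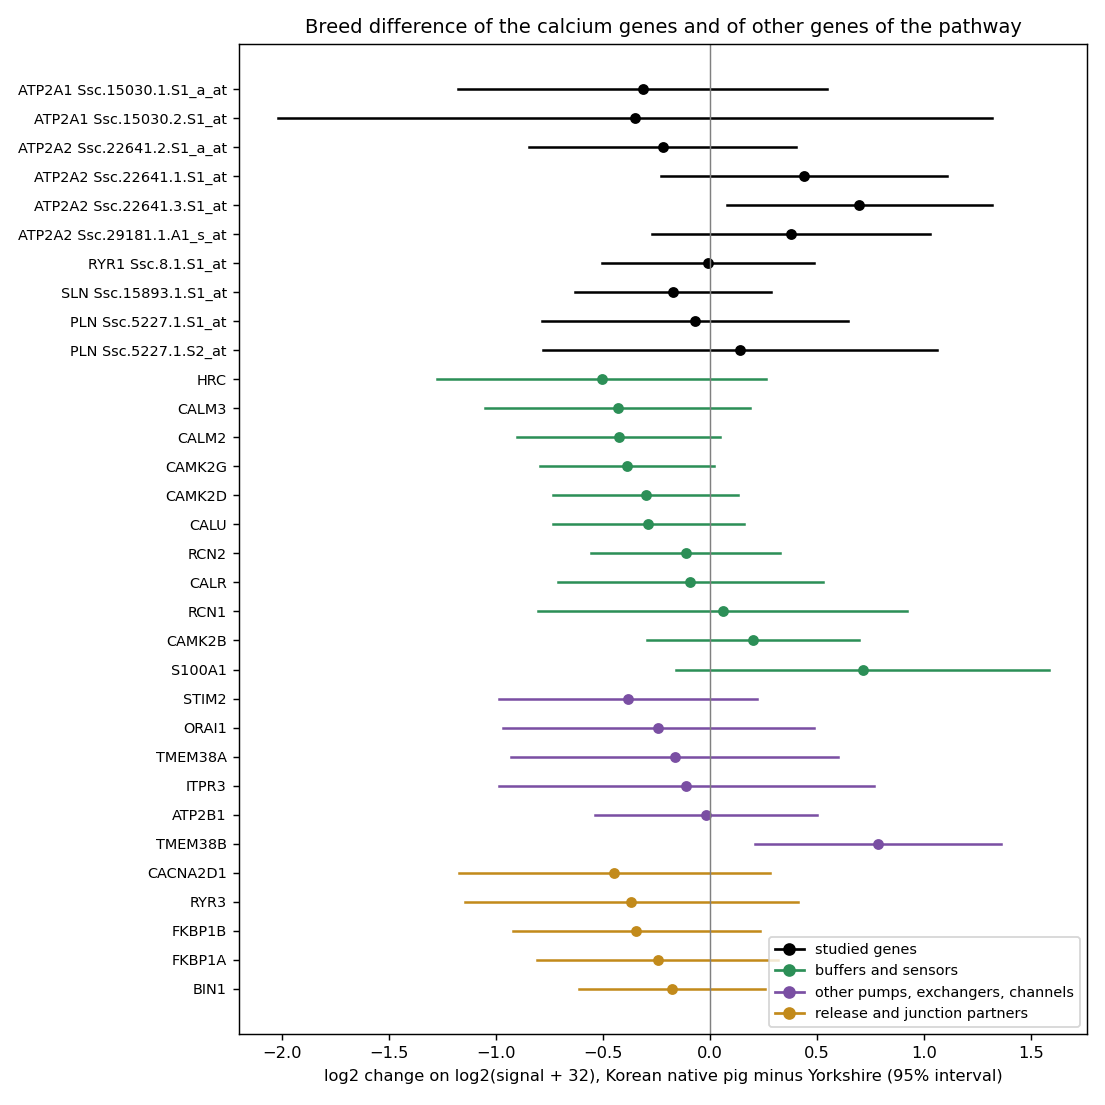
Points are log2 changes, Korean native pig minus Yorkshire, on log2(signal + 32) with 95% intervals from limma, for the 10 probe sets of the studied calcium genes (black) and the 22 tested genes of the wider pathway by role. Intervals of 9 of the 10 black points cross 0, and 18 of the 22 pathway genes lie below 0, with TMEM38B highest at 0.78.

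Of 54 further genes of excitation and calcium handling that were listed, 27 had a probe set and 22 were tested. None passed, 18 had log2 changes below 0 and 4 above 0, and the median was -0.24. Of all probe sets tested, 49.3% were below 0 and the median was 0.00472. That share counts every tested probe set, while each pathway gene was read by its brightest only, so the sets are unlike. The studied calcium genes had all 5 brightest probe sets below 0, but 6 of all 10. Lists of other cell types had medians on either side of the pathway median. They were -0.52 for adipocyte (2 of 3 tested genes below 0), -0.35 for smooth muscle (3 of 4) and -0.26 for connective tissue (4 of 4). Endothelium was at -0.05 (2 of 4), red cell at 0.07 (1 of 3) and nerve and Schwann cell at 0.43 (1 of 2). Heart muscle and leukocyte, with 1 tested gene each, were at -0.65 and 0.03. The 5 skeletal fibre markers had a median of -0.33, with 4 below 0. Of these markers MYL1, TNNC2 and MYH7 also belong to the fast and slow fibre lists above, so these lists are not separate. The pathway median ranged from -0.34 without Korean native pig 2 to -0.13 without Korean native pig 3. With quantile normalisation 18 were below 0, on the bright arrays alone 17 and on the dim arrays alone 15. The breeds did not overlap in 0 of the 22, against 2.56% of all probe sets tested. TMEM38B, which encodes an ion channel that balances charge across the store membrane, was the gene of lowest p. It had signals of 565.4, 915.2, 708.9 and 1088 in Korean native pigs 1 to 4, against 317.4, 392.0, 605.2 and 535.8 in Yorkshire pigs 1 to 4. All but the first of the Korean native pigs were above every Yorkshire pig. The log2 change was 0.78 (SE 0.26, limma unadjusted p = 0.0119, adjusted p = 0.999). The related gene TMEM38A, the main form in skeletal muscle, was at -0.17, and it was named after its values were seen.

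The next 5 by p each had limma adjusted p = 0.999. CAMK2G and CAMK2D, subunits of calmodulin-dependent kinase, had log2 changes of -0.39 (SE 0.19) and -0.30 (SE 0.20), while CAMK2B, a further subunit named after its values were seen, was at 0.20 (SE 0.23). The calmodulin genes CALM2 and CALM3 were at -0.43 (SE 0.22) and -0.43 (SE 0.28). S100A1, a calcium sensor that binds the ryanodine receptor, was at 0.71 (SE 0.40). CAMK2G had signals of 2064 to 3427 in Korean native pigs, with Korean native pig 3 lowest, against 3395 to 3561 in Yorkshire pigs, and only Korean native pig 1 reached the Yorkshire range. Among partners of the release channel and voltage sensor all 5 tested were below 0, from CACNA2D1, an auxiliary subunit of the voltage sensor, at -0.45 to BIN1, a protein of the transverse tubules, at -0.18, both named after their values were seen. Of 6 tested pumps, exchangers and channels 5 were below 0, with a median of -0.14, and of 11 buffers and sensors 8 were, with a median of -0.29.

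Of the paralogs of the calcium genes with a probe set, RYR3 was tested and the other 3 were too dim. RYR2, the ryanodine receptor of the heart, had signals of 12.7 to 98.2 across Korean native pigs, against 31.6 to 82.2 across Yorkshire pigs. ATP2A3, the pump of blood cells and other non-muscle cells, had 12.9 to 54.8 across Korean native pigs, against 18.2 to 70.0 across Yorkshire pigs, below the 91.5 of the negative controls on every array. CASQ2, the calsequestrin of heart and slow fibres, had 10.3 to 149.4 across Korean native pigs, against 32.8 to 143.9 across Yorkshire pigs. RYR3 had 82.6 to 155.3 across Korean native pigs, against 97.5 to 333.2 across Yorkshire pigs, with Yorkshire 4 highest and a log2 change of -0.37 (SE 0.36, limma adjusted p = 0.999). CACNA1C and CACNA1D were matched by no probe set.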

How the data were processed

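Each deposited value was an intensity on a linear scale, already summarised per probe set by the authors. GCOS 1.3 is the software named in the submitters' processing notes. The sources used here do not give the summarisation, scaling target or filters. The mean of each deposited array without its highest and lowest 2% of values was 500.1 to 500.2, so changes are relative to the rest of an array. For arrays, the number of samples limits the precision.

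Values were transformed to log2(signal + 32). The 124 control probe sets and the dimmest 40% of the rest by mean log2 value, near a signal of 98.6, were left out, and 14399 remained. R 4.3.3 with limma 3.58.1 (lmFit, eBayes with intensity trend) fitted all 8 arrays without covariates, and p-values were adjusted over all probe sets by Benjamini-Hochberg. The fit was tested on simulated data. Gene names came from GEO's platform annotation, which can be old, and the probe set of highest mean signal stood for a gene with several. Single values were tested by exact permutation in Python 3.11.15. Hybridisation control brightness averaged 9 control probe sets, and the 3' to 5' measure actin, GAPDH and EF1A controls. A planned difference and both planned pairs that needed CACNA1S or CASQ1 could not be run. Named genes were all members, the pathway genes of smallest p (6), the paralogs of members, MYH7, TNNC2 and the 3 genes most like each member. Members and lists were chosen with earlier results of these data known. Alternatives were other pseudocounts, filters, normalisations, variance models, blocks, a covariate and leaving out arrays.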

Additional observations from a re-analysis of the deposited data

Results flagged for a closer look

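Among 24 groups of 4 arrays, 1 had an array far from the other 3, and by chance about 1 in 20 groups would. The further PLN probe set Ssc.5227.1.S2_at was at 9.89 log2 units in Yorkshire 4, against 11.50 to 11.67 in Yorkshire 1 to 3, a gap that was 0.908 of the whole range of the breed. In the same pig the brightest PLN probe set was also the lowest of its breed.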

How the results depend on the processing

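Under every setting tried none of the 10 member probe sets passed, the smallest limma adjusted p being 0.934, and 211 of 234 recomputed changes kept their sign. Other filters, variance models and blocks left the log2 change itself the same in this balanced design, so they could not turn a sign. Nor could averaging the probe sets of a gene that had only 1. The count therefore overstates how stable the signs were. A stricter filter on dim probe sets left out Ssc.22641.3.S1_at, which then had no value. The causes of the changes below were not tested. With quantile normalisation the log2 change was 0.0307 for RYR1 and 0.0387 for SLN, and SLN minus PLN was 0.10. With arrays centred on their median it was 0.0664 for RYR1 and 0.0031 for PLN. Without Korean native pig 1 and Yorkshire 3, whose 3' to 5' ratio was high, PLN was at 0.21. On the bright arrays alone ATP2A1 was at 0.11, RYR1 at 0.0545, SLN at 0.23, PLN at 0.0332, the further PLN probe set at -0.15, the slow fibre median at 0.12, ATP2A1 minus ATP2A2 at 0.14 and SLN minus PLN at 0.20. With the mean of a gene's probe sets ATP2A2 was at 0.32 and PLN at 0.0329.

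Leaving out each array in turn gave -0.72 to 0.0726 for ATP2A1, -1.11 to 0.29 for its further probe set, -0.45 to -0.01 for ATP2A2, -0.18 to 0.18 for RYR1, -0.28 to -0.03 for SLN, -0.38 to 0.16 for PLN and -0.29 to 0.36 for its further probe set. It gave -0.70 to 0.39 for ATP2A1 minus ATP2A2, -0.40 to 0.22 for SLN minus PLN, and 0 calls each time. The correlation of ATP2A2 with PLN ranged from 0.742 to 0.905 and that of ATP2A1 with SLN from -0.0167 to 0.748. The correlation of ATP2A2 with PLN was 0.385 without the 2 arrays farthest from the median and 0.756 centred within bright and dim arrays. It was 0.662 with the mean of all probe sets. With quantile normalisation it was 0.889, and with Korean native pig 1 and Yorkshire 3 left out 0.842. The correlation of ATP2A1 with SLN was -0.383 without its 2 farthest arrays.

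The labels do not say that replicate numbers pair the breeds, and deviations of same-numbered arrays correlated at -0.04, 0.31, 0.10 and 0.05. Arrays of different numbers correlated at -0.42 to 0.36. With the replicate number as a block 1 probe set passed, against 0, and no member did, with adjusted p of 0.992 to 0.998. Signals near the negative controls limit what could be seen for RYR2, CASQ2 and ATP2A3.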
